A study of Mus musculus with 8 samples.

Results

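A set of 6 genes with some of the largest transcript falls under a guide RNA against Foxp3 in mouse regulatory T cells was followed over the 4 groups of an RNA sequencing study. These are Svep1, Acvr1c, Hepacam2, Frmd5, Gad1 and Kctd12b, 6 of 55665 genes in the deposited tables. They were picked by symbol, for their large difference between the Foxp3 guide and the control guide, so that difference is described here and not tested. All 6 passed the filter on low counts, which kept 16642 genes for testing.

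The cells were ex vivo cultured natural regulatory T (nTreg) cells, sorted as CD4+GFP+ cells from spleen and lymph nodes of RosaCas9/+ Foxp3gfp mice, so that every group, the controls included, carried Cas9 and the green fluorescent Foxp3 reporter. The 4 groups were sgFoxp3 (a guide against Foxp3) with anti-CD3/anti-CD28 restimulation of the T cell receptor (TCR) for 3 h, sgNC (the control guide) with the same restimulation, sgFoxp3 with mock treatment in DPBS buffer (0 h), and sgNC with mock treatment. Each group had 2 stranded libraries, 8 in all, with totals of 38729009 to 94807362 expected counts. The labels give neither the age of the mice, nor the share of cells in which the guide had cut, nor whether the 2 libraries of a group came from separate mice or cultures. The p-values below therefore reflect only library-to-library spread, part or all of which may be technical.

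Foxp3 is the X-linked transcription factor that defines regulatory T cells, the CD4 T cells that restrain immune responses. It raises the transcription of some genes and lowers that of others, together with partner factors. The 6 genes belong to no common pathway. Svep1 encodes a large secreted protein of the extracellular matrix that binds integrin α9β1, and Acvr1c encodes ALK7, a type I receptor for activin-type ligands. Hepacam2 encodes an immunoglobulin-like membrane protein, Frmd5 a FERM-domain protein of cell junctions, Gad1 an enzyme that makes the transmitter GABA from glutamate, and Kctd12b a relative of the auxiliary subunits of GABA-B receptors.

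The targeted gene was measured first. Foxp3 had 76.1 and 71.8 CPM (counts scaled to library size with TMM factors) in the Foxp3-guide libraries at 3 h, against 679 and 673 in the control-guide libraries. At 0 h it had 87.6 and 88.5 CPM with the Foxp3 guide, against 764 and 776 with the control guide. The transcript thus remained at 10.9% of the control at 3 h and 11.4% at 0 h. In bulk RNA, for Foxp3 as for every gene below, fewer cells with a transcript and less transcript per cell cannot be told apart. Summed over 8 Treg markers (Foxp3, Il2ra, Ikzf2, Ikzf4, Ctla4, Tnfrsf18, Lrrc32 and Gpr83), the level was 4101 to 4128 CPM with the Foxp3 guide against 8791 to 8950 with the control guide at 3 h, and 1864 to 1878 against 4610 to 4617 at 0 h. The largest part at 3 h was Il2ra, with means of 2735 and 5014 CPM. Ikzf2 was not lower at 3 h, with means of 473 and 443 CPM (adjusted p = 0.0605, edgeR's quasi-likelihood test). By that test, at an adjusted p below 0.05, the other 7 were lower at 3 h and all 8 at 0 h. Of all tested genes, 30.8% were called lower at 3 h and 29.1% at 0 h. Foxp3, the targeted gene, is itself among the 8. The 5 T cell markers (Cd3e, Cd3g, Cd4, Cd5 and Cd28) summed to 1279 to 1301 CPM with the Foxp3 guide against 1412 to 1418 with the control guide at 3 h. At 0 h they summed to 2057 to 2072 CPM with the Foxp3 guide against 1587 to 1607 with the control guide.

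The upstream sequence of the 3 members with the largest mean falls is shown first, because the data concern their transcript level. These are bases 250 to 101 before the RefSeq start in GRCm38.p6, 5′ to 3′ on the gene's strand. Capitals mark matches to the TnG repeat motif.
Svep1: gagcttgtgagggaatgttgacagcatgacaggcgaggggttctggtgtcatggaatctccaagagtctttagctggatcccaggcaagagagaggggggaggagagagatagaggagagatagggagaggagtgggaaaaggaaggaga
Hepacam2: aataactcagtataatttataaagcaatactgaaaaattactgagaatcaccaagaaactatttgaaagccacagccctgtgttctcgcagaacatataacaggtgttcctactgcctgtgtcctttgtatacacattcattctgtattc
Gad1: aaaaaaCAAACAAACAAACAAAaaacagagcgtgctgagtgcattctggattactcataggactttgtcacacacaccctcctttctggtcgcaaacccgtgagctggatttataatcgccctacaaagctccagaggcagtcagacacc
For all 3 genes the outermost GENCODE start lies further upstream than the RefSeq start used here, so the stretches shown lie inside the gene as GENCODE annotates it. The stretches lie at chr4:58206697-58206846 on the minus strand, chr6:3494599-3494748 on the minus strand and chr2:70561879-70562028 on the plus strand. The 250 bases before each start were searched on both strands for a forkhead motif (TGTTTAC), a RUNX motif (TGTGGT), a STAT motif (TTCNNNGAA), an AP-1 motif (TGANTCA), an ETS motif (CCGGAAGT) and the TnG repeat (TTTGTTTG), some of which can overlap. Of 32851 RefSeq promoters these were found in 3.17%, 14%, 7.02%, 6.75%, 2.88% and 2.37%, in that order. Among 6 promoters of the 5 members in the table (2 of Acvr1c), only that of Gad1 held a match, 3 overlapping TnG repeats at positions -244 to -229 from the start. Their base composition differed widely: CpG dinucleotides numbered 1 in Hepacam2, 3 in Svep1, 16 in Frmd5, 17 in Gad1, and 32 and 2 in the 2 Acvr1c promoters, against a median of 6 over all promoters.

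Svep1 (ENSMUSG00000028369.15; GRCm38 chr4:58042442-58206859, minus strand, 48 exons) was reduced to a like low level at both times. It had 0.531 and 0.413 CPM in the Foxp3-guide libraries at 3 h, against 26.8 and 25.1 CPM with the control guide. Without stimulation it had 0.448 and 0.407 CPM with the Foxp3 guide, against 31.9 and 33.1 CPM with the control guide. All 4 Foxp3-guide libraries were low at both times, and the groups did not overlap. The fitted log2 guide effect was -5.82 ± 0.17 (SE) at 3 h and -6.24 ± 0.17 at 0 h.

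Acvr1c (ENSMUSG00000026834.13; chr2:58267453-58357895, minus strand, 9 exons) lost less. It had 1.0 and 0.90 CPM with the Foxp3 guide at 3 h, against 4.37 and 5.05 CPM with the control guide. Mock-treated cells had 3.93 and 4.54 CPM with the Foxp3 guide, against 34.2 and 33.2 CPM with the control guide. The stimulated control libraries stood near the unstimulated Foxp3-guide libraries, and within each time the guides did not overlap. The log2 guide effect was -2.32 ± 0.15 (SE) at 3 h and -2.99 ± 0.08 at 0 h.

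Hepacam2 (ENSMUSG00000044156.14; chr6:3457096-3498298, minus strand, 10 exons) was the member with the highest level per length in unstimulated control cells, with a mean of 63.3 TPM (transcripts per library total, corrected for gene length). It had 0.0816 and 0.146 CPM with the Foxp3 guide at 3 h, 16 counts in both libraries together, against 10.1 and 9.18 CPM with the control guide. Before stimulation, at 0 h, there were 1.33 and 1.83 CPM with the Foxp3 guide, against 60.0 and 59.8 CPM with the control guide. The log2 guide effect was -6.28 ± 0.36 (SE) at 3 h and -5.24 ± 0.11 at 0 h, and the groups did not overlap at either time.

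Frmd5 (ENSMUSG00000027238.17; chr2:121545529-121807087, minus strand, 15 exons) followed the course of Acvr1c. It had 0.653 and 0.401 CPM with the Foxp3 guide at 3 h, against 4.71 and 5.69 CPM with the control guide. At 0 h the level was 4.54 and 4.12 CPM with the Foxp3 guide, against 38.7 and 37.4 CPM with the control guide. As for Acvr1c, guide and stimulation each went with a low level, the stimulated Foxp3-guide libraries were the lowest, and the guides did not overlap at either time. The log2 guide effect was -3.38 ± 0.20 (SE) at 3 h and -3.14 ± 0.09 at 0 h.

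Gad1 (ENSMUSG00000070880.10; chr2:70553072-70602014, plus strand, 17 exons) was the only member with more CPM in stimulated than in mock-treated cells under both guides, a difference that was absent in control cells on TPM. It had 1.51 and 1.44 CPM with the Foxp3 guide at 3 h, against 26.3 and 25.5 CPM with the control guide. In mock-treated cells it had 0.490 and 0.466 CPM with the Foxp3 guide, against 18.8 and 18.4 CPM with the control guide. The Foxp3-guide libraries were low at both times and did not overlap with the controls. The log2 guide effect was -4.14 ± 0.10 (SE) at 3 h and -5.27 ± 0.16 at 0 h.

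Kctd12b (ENSMUSG00000041633.14; chrX:153685154-153696391, minus strand, 2 exons) was lower with stimulation than with the Foxp3 guide alone. It had 0.0612 and 0.0608 CPM with the Foxp3 guide at 3 h, 8 counts in both libraries together, against 1.87 and 1.53 CPM with the control guide. Its unstimulated level was 10.5 and 10.6 CPM with the Foxp3 guide, against 40.7 and 40.5 CPM with the control guide. Within each time the guides did not overlap, but the unstimulated Foxp3-guide libraries were higher than the stimulated control libraries. The log2 guide effect was -4.76 ± 0.44 (SE) at 3 h and -1.94 ± 0.06 at 0 h.

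**Figure D1:**
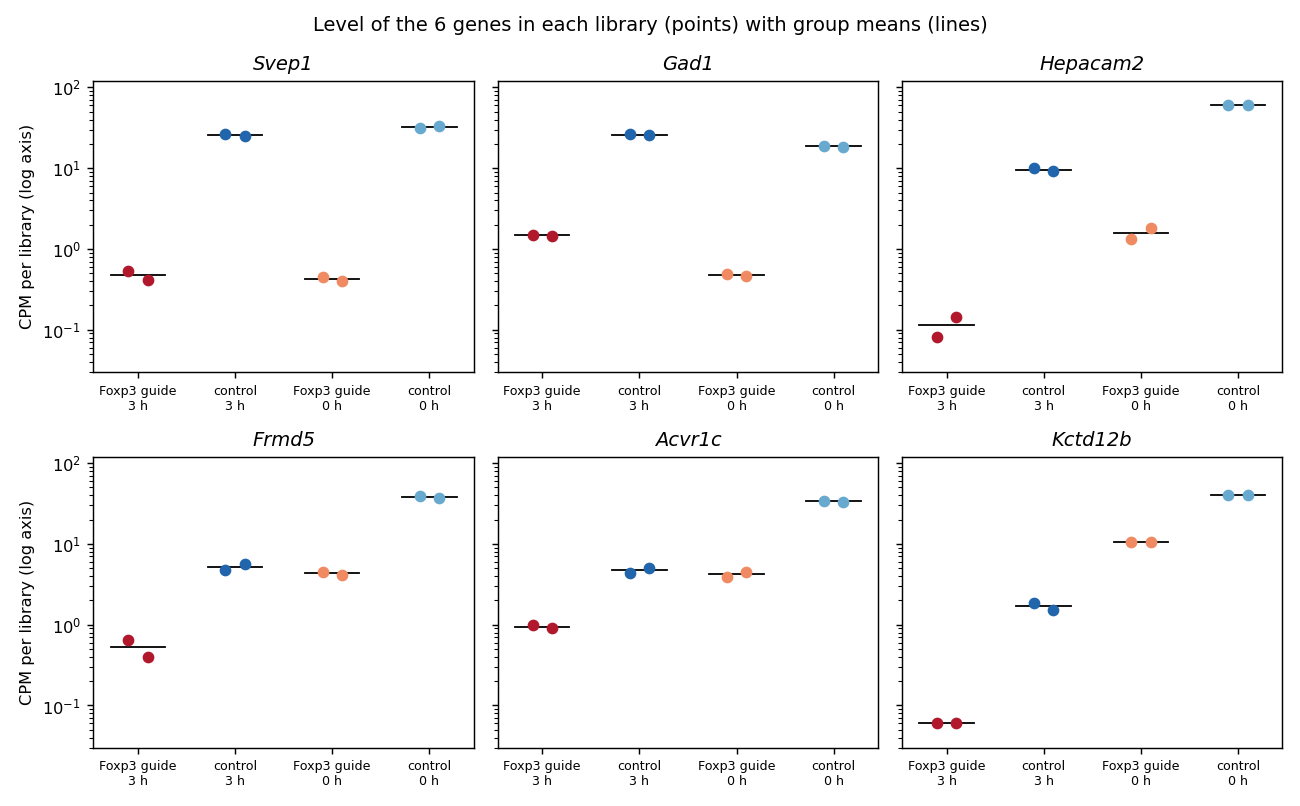
CPM of each gene (log axis) in each library (points) with the group mean (line), by guide and time. Within each time every Foxp3-guide library lies below both control libraries; Svep1 and Gad1 are low with the Foxp3 guide at both times, while Kctd12b reaches 10.5 and 10.6 CPM with the Foxp3 guide at 0 h.

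The share of transcript left with the Foxp3 guide separated the members. Svep1 was at 1.82% of the control CPM at 3 h (95% interval 1.34 to 2.28, exact, counting error only) and 1.32% at 0 h (1.0 to 1.7). Hepacam2 was at 1.18% (0.72 to 2.07) at 3 h and 2.64% (2.29 to 3.01) at 0 h. Gad1 was at 5.69% (4.85 to 6.54) at 3 h and 2.57% (1.98 to 3.28) at 0 h. Near silence thus describes these members, each at no more than 5.69% of the control CPM at both times. Kctd12b was at 3.59% (1.52 to 7.23) at 3 h but 26.0% (24.5 to 27.6) at 0 h. Frmd5 was at 10.1% (7.25 to 12.4) at 3 h and 11.4% (10.4 to 12.4) at 0 h, and Acvr1c at 20.2% (16.2 to 24.4) and 12.6% (11.5 to 13.7). Frmd5 and Acvr1c were reduced but not silenced, and the interval of Frmd5 spanned Foxp3's value at both times. Acvr1c stood above the 10.9% and 11.4% of Foxp3 itself, though at 0 h its interval overlapped that of Foxp3 (11.2 to 11.6). On the deposited TPM values Acvr1c was at 34.8% of the control at 3 h and 10.3% at 0 h, and Hepacam2 was at 2.05% at 3 h and 2.03% at 0 h, so that Hepacam2 differed between the times on CPM and not on TPM.

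**Figure D2:**
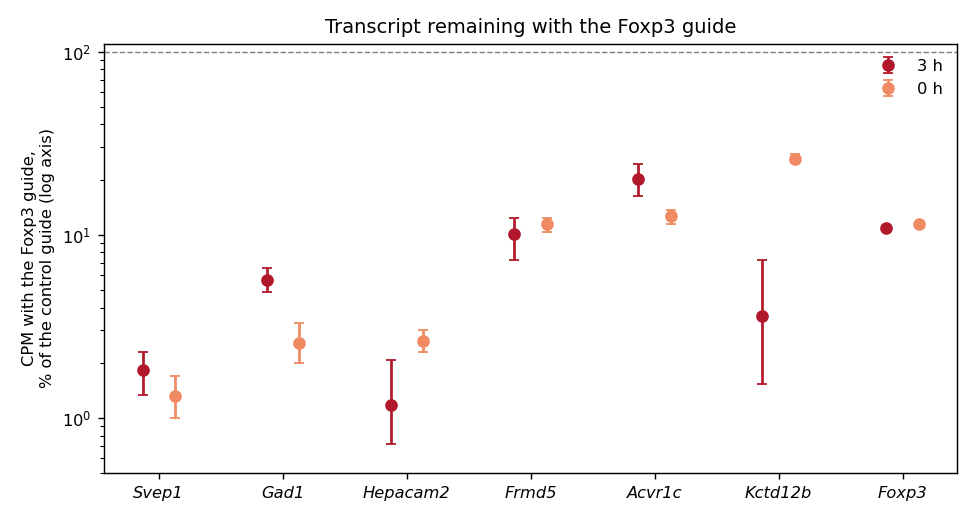
CPM with the Foxp3 guide as a percent of the control guide (log axis), at 3 h and 0 h, with 95% exact intervals that cover counting error only. Svep1, Hepacam2 and Gad1 lie below 6%, while Kctd12b lies at 3.59% at 3 h and 26.0% at 0 h.

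The members also differed in how the guide effect changed with stimulation. The difference of the log2 guide effects, 3 h minus 0 h, was -2.81 ± 0.45 (SE) for Kctd12b and -1.03 ± 0.38 for Hepacam2. It was 1.13 ± 0.19 for Gad1, 0.67 ± 0.17 for Acvr1c, 0.42 ± 0.24 for Svep1 and -0.24 ± 0.22 for Frmd5. On the count scale the fall was deeper in stimulated cells for Kctd12b and Hepacam2, and deeper in mock-treated cells for Gad1 and Acvr1c. The order turned round for Hepacam2 on log2(TPM+0.1), with -5.04 at 3 h and -5.54 at 0 h, and on log2(TPM+1), with -2.93 and -4.82. For Kctd12b the values were -2.33 at 3 h and -2.17 at 0 h on log2(TPM+0.1), and the order turned round on log2(TPM+1), with -0.56 and -1.92, a scale that understates changes of low levels. Gad1 and Acvr1c kept the deeper fall at 0 h on both TPM scales. For Svep1 and Frmd5 the estimate was nearer to 0. These values are descriptions, since the guide effects chose the members.

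Among all genes, 2666 were called lower with the Foxp3 guide at both times and had a mean log2 CPM of at least 0. Ranked among these 2666 by the mean of the 2 log2 falls, Svep1 was 1, Hepacam2 2, Gad1 5, Kctd12b 29, Frmd5 33 and Acvr1c 58. Among the same 2666, a fall of at least 8-fold at both times was seen in 25 genes, 4 of them members (Svep1, Hepacam2, Gad1 and Frmd5). Genes at a lower level were left out, such as Ttc21a, with log2 guide effects of -5.35 at 3 h and -5.78 at 0 h. By log2 change alone over all 16642 tested genes, Svep1 ranked 16 at 3 h and 8 at 0 h, Hepacam2 11 and 17, and Gad1 62 and 15. Kctd12b ranked 36 and 398, Frmd5 130 and 123, and Acvr1c 340 and 140. Non-members among the largest mean falls of the 2666 included Ccdc9b, Prrt1, Glt28d2, Ltbp2, C1ql3, Ltf, Ache, Aldh1a2 and Fam160a1. Ltbp2, a latent TGF-β binding protein of the matrix, stood at 5.89% of the control at 3 h and 4.67% at 0 h. Ltf, which encodes the iron-binding protein lactoferrin, stood at 6.38% and 5.75%. Aldh1a2, an enzyme of retinoic acid synthesis, stood at 10.6% and 3.67%. Ccdc9b had 0 counts with the Foxp3 guide against 37 with the control guide at 3 h, and stood at 13.4% at 0 h.

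The response to TCR stimulation was not used to choose the members and was tested, though the same libraries enter the guide comparisons. With the Foxp3 guide 5 of the 6 members passed the test, 1 higher and 4 lower, against 85.4% of all genes called, 40.8% higher and 44.5% lower (edgeR's quasi-likelihood test, Benjamini-Hochberg adjusted p below 0.05). With the control guide all 6 passed, 1 higher and 5 lower, against 81.8% of all genes, 40.9% higher and 40.9% lower. A share this near to the background says nothing particular of the members, but the sizes of the changes can be read. Falls of at least 2-fold were called in 4 of the 6 members with either guide, against 28.4% of all genes under the Foxp3 guide and 24.2% under the control. The members were chosen on these same libraries, so these shares describe them and give no independent support.

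Kctd12b fell furthest on stimulation. Its log2 change, 3 h over 0 h, was -7.38 ± 0.43 (SE) under the Foxp3 guide and -4.57 ± 0.11 under the control, where it came to a 23.8-fold fall (adjusted p = 1.36e-22 and 5.86e-24, edgeR's quasi-likelihood test). Hepacam2 changed by -3.67 ± 0.37 under the Foxp3 guide and by -2.64 ± 0.07 under the control (adjusted p = 4.36e-12 and 1.38e-20, same test). For Frmd5 the values were -3.12 ± 0.20 and -2.87 ± 0.09 (adjusted p = 8.41e-15 and 3.46e-19, same test), and for Acvr1c -2.17 ± 0.14 and -2.84 ± 0.09 (adjusted p = 5.53e-14 and 3.47e-20, same test). With either guide these 4 genes were lower in both libraries at 3 h than in both at 0 h.

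Svep1 and Gad1 moved less. Svep1 changed by 0.10 ± 0.23 with the Foxp3 guide, which did not pass the test at 60 counts in each group (adjusted p = 0.738, edgeR's quasi-likelihood test). It fell by 0.33 on the log2 scale with the control guide (SE 0.06, adjusted p = 2.87e-05, same test). Gad1 rose by 1.61 ± 0.18 with the Foxp3 guide (adjusted p = 2.30e-09, edgeR's quasi-likelihood test), with 1.51 and 1.44 CPM at 3 h against 0.490 and 0.466 at 0 h. Its change with the control guide, 0.48 ± 0.06 (adjusted p = 2.12e-07, same test), was absent on the deposited TPM values, 15.3 and 13.2 at 3 h against 15.0 and 13.5 at 0 h, where the log2(TPM+1) change was -0.0045 (adjusted p = 0.969, limma). The median change of all genes with the control guide was -0.01 on the count scale and -0.20 on that TPM scale. Under upper-quartile scaling of the counts, where that median was -0.25, Gad1 was still higher, by 0.24 (adjusted p = 0.00132, edgeR's quasi-likelihood test). Why the TPM values differ was not tested. On TPM 37.3% of the calls with the control guide were higher, against 50% on counts.

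**Figure D3:**
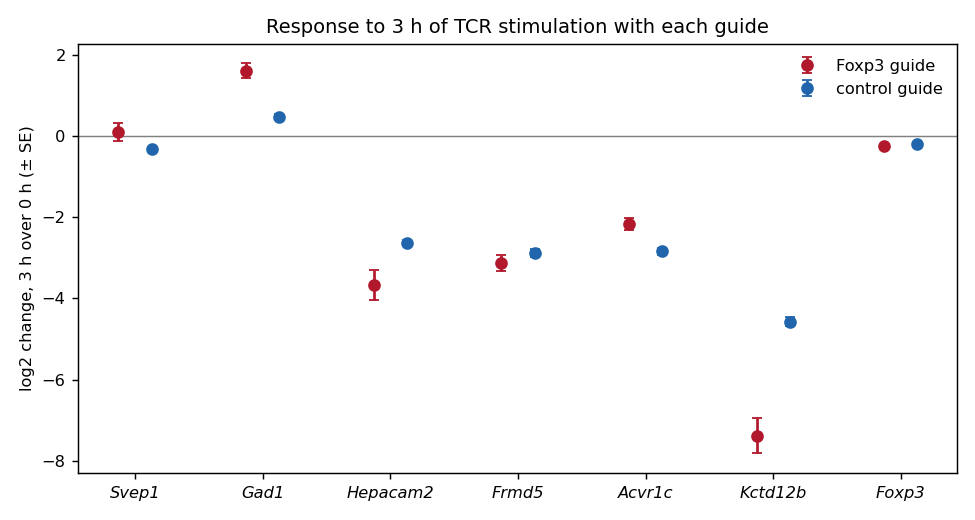
Log2 change from 0 h to 3 h of TCR stimulation with each guide (points) with its SE (bars). Hepacam2, Frmd5, Acvr1c and Kctd12b lie below -2 with both guides, and Gad1 lies above 0 with both, though its change with the control guide is absent on TPM.

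Levels between genes were compared per length, in deposited TPM. In control cells at 3 h Gad1 led with a mean of 14.2 TPM, then Hepacam2 with 7.80, Svep1 with 3.23 and Frmd5 with 3.11, Acvr1c with 0.89 and Kctd12b with 0.505. Svep1 and Frmd5 overlapped there, and no other neighbours did. In unstimulated control cells the order was Hepacam2 at 63.3, Frmd5 at 26.1, Kctd12b at 15.6, Gad1 at 14.3, Acvr1c at 7.23 and Svep1 at 5.13 TPM, with no overlap between neighbours. With the Foxp3 guide at 3 h Gad1 led at 0.86 TPM and Kctd12b was last at 0.02, while Frmd5, Acvr1c, Hepacam2 and Svep1, in that order, lay between 0.38 and 0.06 with overlap or contact between neighbours. With the Foxp3 guide at 0 h Kctd12b led at 3.37 TPM and Svep1 was last at 0.06.

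Likeness of pattern over the groups was measured as the Euclidean distance between the 4 group means of log2 CPM, each gene centred on its own mean. Among the members Frmd5 and Acvr1c were closest, at 0.837, followed by Svep1 and Gad1 at 1.72, and Gad1 and Kctd12b were farthest apart at 7.07. Matches were sought among the other tested genes, leaving out numbered gene models and antigen receptor segments, some of which may lie nearer. Cecr2 (0.232) and Kcnip3 (0.476) were then nearest to Acvr1c, and Osbpl6 (0.387) and Plekhd1 (0.473) to Frmd5. Fam160a1 (0.827) and Aldh1a2 (0.859) were nearest to Gad1. The nearest to Svep1 were Ttc21a (1.56) and Ltf (1.92), and to Hepacam2 Ltbp2 (1.93) and Onecut2 (1.97). The nearest to Kctd12b were Mturn (1.5) and the pseudogene Hmgb1-ps8 (1.55). Like Svep1 and Hepacam2, Kctd12b had no match among the genes searched as near as those of Frmd5, Acvr1c and Gad1. Several of these courses rest on few reads, including the nearest matches of Acvr1c, Frmd5 and Svep1. Summed over the stimulated Foxp3-guide libraries, Cecr2 and Osbpl6 reached only 5 counts each and Ttc21a only 3. Kcnip3 and Plekhd1 reached 2 each, and Onecut2 was at 0. Ttc21a was also low in the unstimulated Foxp3-guide libraries, at 7 counts.

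Genes beside the members were read to see how local the falls were. Of the 12 nearest protein-coding genes on either side, 7 passed the filter. With the Foxp3 guide at 3 h 1 was higher and 3 were lower, against 61.5% of all genes called (30.7% higher and 30.8% lower), and at 0 h 1 was higher and 4 were lower, against 63.3% (34.2% higher and 29.1% lower). Vps50, which starts 0.1 kb from the annotated start of Hepacam2 and runs the other way, had log2 changes of -0.07 at 3 h and -0.01 at 0 h (adjusted p = 0.201 and 0.915, edgeR's quasi-likelihood test). On the other side of Hepacam2, 57.5 kb away, the interferon-inducible gene Samd9l fell by 1.62 at 3 h and by 0.86 at 0 h on the log2 scale. Beside Frmd5, 0.7 kb away, Wdr76 rose by 1.18 and 1.08, and Casc4 had -0.12 at 3 h (adjusted p = 0.0887, same test) and fell by 0.96 at 0 h. Beside Acvr1c, Acvr1, another type I receptor gene of the same family, had 0.01 and 0.15 (adjusted p = 0.924 and 0.164, same test), and Cytip fell by 1.32 and 0.27. Beside Kctd12b, Nbdy fell by 1.13 and 0.70. The neighbours of Svep1 (Txndc8 and Musk) and of Gad1 (Erich2 and a numbered gene model) had 0 to 19 counts over all libraries, as did Cypt3 beside Kctd12b. The 6 genes that overlap a member had 0 to 8 counts.

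Relatives and partners of the members were counted in 9 lists of 123 genes, of which 77 were tested. With the Foxp3 guide 21 rose and 29 fell at 3 h, which is 64.9% called against 61.5% of all genes, and 26 rose and 28 fell at 0 h, 70.1% against 63.3%. Their median log2 changes were -0.03 and 0.02, beside -0.01 and 0.02 over all genes. None fell 8-fold at either time. Over all genes 49.9% of the calls at 3 h and 54.0% at 0 h were higher on counts, against 27.4% and 27.9% on log2(TPM+1). On log2(TPM+1) without a filter 31 rather than 50 of these genes were called at 3 h.

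In the GABA lists, 7 of 11 genes of synthesis, breakdown and transport were tested, with 1 higher and 2 lower at 3 h and 1 higher and 3 lower at 0 h. Gad2, the other glutamate decarboxylase gene, had 17.7 CPM with the Foxp3 guide against 24.0 with the control guide at 3 h, and 3.65 against 14.8 at 0 h (SD 0.342, 0.0402, 0.0315 and 1.40, n = 2 each). Its log2 guide effect was -0.44 ± 0.06 at 3 h and -2.01 ± 0.08 at 0 h, and both passed the test. Aldh5a1, which breaks down the product of GABA transamination, changed by -1.26 ± 0.25 at 3 h, and Abat, the GABA transaminase, by 1.09 ± 0.35 at 0 h. Slc6a13, a GABA transporter, had 26 counts with the Foxp3 guide against 4 with the control guide at 3 h. Of 21 GABA receptor subunits only 3 were tested, and 2 fell at 3 h and 3 at 0 h. Gabrr2 changed by -2.89 ± 0.66 and -0.67 ± 0.24, and Gabrd by -1.08 ± 0.38 at 0 h. Gabbr1 encodes a subunit of the GABA-B receptor, which Kctd12 relatives bind, and was named after its values were seen. It changed by -0.74 ± 0.04 and -0.59 ± 0.04, while Gabbr2, its partner in that receptor, had 0 to 1 counts per group.

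In the KCTD family 17 of 21 genes were tested, with 6 higher and 6 lower at 3 h and 10 higher and 3 lower at 0 h. Kctd12, the closest relative of Kctd12b and also named after its values were seen, changed by 0.03 ± 0.07 at 3 h (adjusted p = 0.749, edgeR's quasi-likelihood test) and rose by 0.45 ± 0.07 at 0 h. Kctd15 rose by 1.39 ± 0.20 at 3 h, and Kctd14 by 1.42 ± 0.25 and Kctd7 by 1.03 ± 0.10 at 0 h.

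Around Acvr1c, 12 of 15 receptors and coreceptors of the TGF-β family were tested, with 2 higher and 7 lower at 3 h and 5 higher and 4 lower at 0 h. Eng, the coreceptor endoglin, rose by 1.81 ± 0.46 at 3 h and 3.09 ± 0.35 at 0 h, with 64 counts with the Foxp3 guide against 12 with the control guide at 3 h. Tgfbr3, the coreceptor betaglycan, rose by 0.48 ± 0.13 and 1.28 ± 0.08. Acvr2b, a type II activin receptor, fell by 1.3 ± 0.33 and 0.55 ± 0.17. Tdgf1, a Nodal coreceptor, had 3 counts against 11 at 3 h, 18.2% of the control (95% interval 3.25 to 68.8). Of 12 activin-type ligands and antagonists 5 were tested, with 2 higher and 1 lower at 3 h and 1 lower at 0 h. Inhbb, Nodal and Gdf3, which encode ALK7 ligands and were named after their values were seen, had 0 to 4 counts per group. Gdf11 of the same list, also named after its values were seen, had 718 to 1491 counts per group. It changed by 0.47 ± 0.08 at 3 h and by -0.50 ± 0.08 at 0 h, and both passed the test. Of 8 SMAD genes 7 were tested, with 1 higher and 4 lower at 3 h and 2 higher and 5 lower at 0 h. Smad7, the inhibitory SMAD, fell by 1.60 ± 0.04 and 0.25 ± 0.04. Smad6, the other inhibitory SMAD, had 89 counts with the Foxp3 guide against 22 at 0 h. Scaled to library size this was 271% of the control (95% interval 168 to 454).

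For Frmd5, 15 of 19 FERM-domain genes were tested, with 4 higher and 5 lower at 3 h and 6 higher and 5 lower at 0 h. Frmd6 had a log2 change of -0.04 at 3 h (adjusted p = 0.359, edgeR's quasi-likelihood test) and fell by 1.65 ± 0.04 at 0 h. Frmpd1 had 106 counts with the Foxp3 guide against 9 with the control guide at 0 h, Epb41l4a rose by 1.56 ± 0.31 at 0 h, and Epb41l4b rose by 1.59 ± 0.71 at 3 h. For Svep1, 8 of 12 receptors and other α9 integrin ligands were tested, with 4 higher and 1 lower at 3 h and 1 higher and 3 lower at 0 h. Tnc, the matrix protein tenascin-C, had 87 counts with the Foxp3 guide against 6 with the control guide at 3 h. Vcam1, an adhesion molecule, changed by -2.29 ± 0.27 at 3 h, and Spp1, which encodes osteopontin, by 1.98 ± 0.27 at 0 h. The HEPACAM2 list had 3 of 4 genes tested, with 1 higher and 1 lower at each time and no change of 2-fold.

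**Figure D4:**
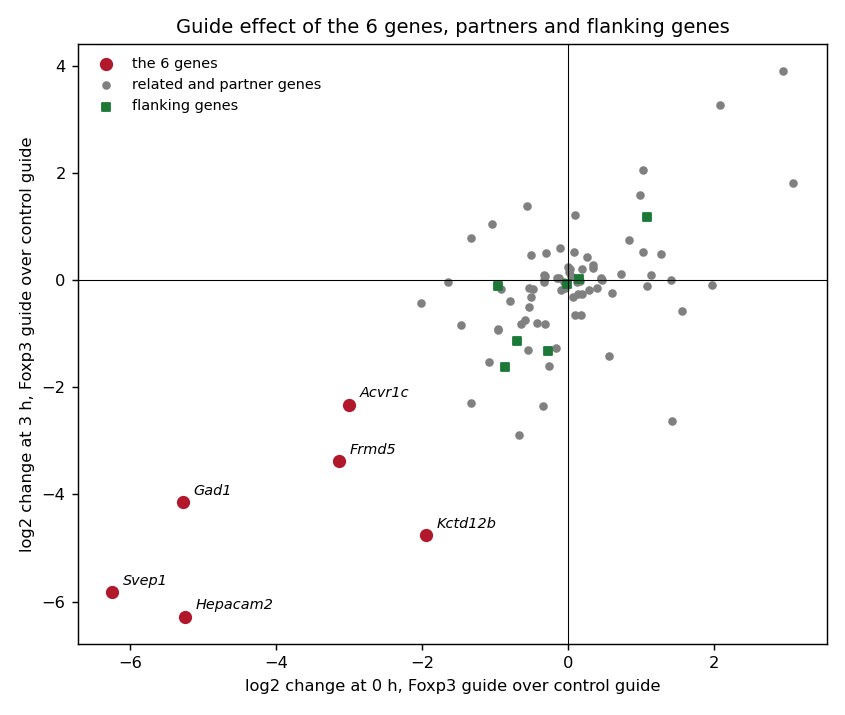
Fitted log2 guide effect at 3 h (vertical axis) against 0 h (horizontal axis) for the 6 genes, the tested related and partner genes, and the tested flanking genes. Related and flanking genes spread on both sides of 0, with lowest values of -2.89 at 3 h and -2.01 at 0 h, and a few points from genes with 0 counts in a group have no reliable size.

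Because several members are known from other tissues, markers of those tissues were read. Summed over 7 stromal markers the level was at most 1.03 CPM in any library, over 6 neuronal markers at most 3.41 CPM with Rbfox3 at 0 in all groups, and over 4 adipocyte markers at most 0.495 CPM with Lep and Cidec at 0 in all groups. In control cells at 0 h, where the members had 18.4 to 60.0 CPM, the stromal markers reached 1.03, the neuronal markers 0.737 and the adipocyte markers 0.0612 CPM. The 6 epithelial and tuft cell markers summed to 61.0 to 64.8 CPM with the Foxp3 guide against 74.1 to 76.3 CPM with the control guide at 3 h, and to 3.03 to 3.36 against 18.9 to 19.0 CPM at 0 h. Nearly all of it was Epcam, while the tuft cell factor Pou2f3 was at 0 in 3 of the 4 groups. The 5 endothelial markers, mostly Pecam1, summed to 40 to 41.8 CPM against 29.9 to 30.4 CPM at 3 h and to 130.3 to 131 against 201.5 to 211.7 CPM at 0 h. B cell, CD8 T cell, myeloid and erythroid markers summed to at most 4.61, 8.71, 4.37 and 0.084 CPM. The part of Epcam, Pecam1 or the deeper Foxp3-guide libraries at 0 h in the members' falls was not tested.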

How the data were processed

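RNA sequencing was done on 8 libraries of nTreg cells (guide by time, 2 per group). Per the submitters' processing notes, the authors used Trim Galore 0.6.3, STAR 2.7.9a and RSEM 1.3.1 with mm10 (GRCm38); the annotation release is not given in the sources used here. The authors deposited RSEM expected counts and TPM per gene. Expected counts were rounded to whole numbers; 92 spike-in entries held 1 count in all. RSEM splits reads shared by similar genes, which makes small values of relatives less certain.

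The members and gene lists were chosen with earlier results of these data known. Genes were filtered with filterByExpr, scaled by TMM and fitted with edgeR 4.0.16 (quasi-likelihood, robust, 1 mean per group, 4 residual degrees of freedom) in R 4.3.3, with Benjamini-Hochberg adjustment over 16642 genes and calls at an adjusted p below 0.05; the biological coefficient of variation was 3.41%. The method was tested on simulated data. Library totals were 38729009 to 94807362 counts. Intervals come from summed counts and cover counting error only. Shares are ratios of group mean CPM for the members and Foxp3, and come from summed counts scaled to library size for other genes. Named genes were the members, Foxp3, flanking and overlapping genes, the 2 nearest in course, the 10 largest other falls (1 of them is not reported here), and up to 4 called list members per list with a log2 change of at least 1; gene models without a proper name and antigen receptor segments were passed over. Replicates of a group differed by a chi-square per gene of 4.25 to 6.81, so none was a duplicate. Loci come from GENCODE M21 (55394 of 55665 identifiers matched without version) and promoters from RefSeq, GRCm38.p6. Alternatives were DESeq2 1.42.0, scaling by RLE or upper quartile, limma 3.58.1 on log2(TPM+1) and log2(TPM+0.1), no filter, only the 4 libraries compared, the replicate number as a block and each library left out.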

Additional observations from a re-analysis of the deposited data

Results flagged for a closer look

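The 3 partner genes listed here had a guide effect of opposite sign at the 2 times, with both Foxp3-guide libraries on one side of both control libraries at 3 h and on the other side at 0 h. Npnt, which encodes the integrin ligand nephronectin, had a log2 guide effect of 0.78 at 3 h and -1.33 at 0 h, and both passed edgeR's quasi-likelihood test. Spp1 had -0.10 at 3 h and 1.98 at 0 h, and the 3 h value did not pass (adjusted p = 0.34, edgeR's quasi-likelihood test). Fstl3, which encodes an activin antagonist, had -1.42 at 3 h and 0.56 at 0 h on 15 to 75 counts per group, and the 0 h value did not pass (adjusted p = 0.166, same test). The difference between the 2 times was not tested for these genes.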

How the results depend on the processing

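Over 17 alternatives the members' guide effects kept their sign, and 5 members passed the test for stimulation with the Foxp3 guide. Genes called numbered 8246 to 10291 at 3 h (10231) and 9042 to 10824 at 0 h (10539) for the guide. Gad1's rise on stimulation with the control guide was absent on TPM, at -0.0045 on log2(TPM+1) with or without the filter and -0.0049 on log2(TPM+0.1). On TPM the share of guide calls that were higher was 27.4% in place of 49.9% at 3 h and 27.9% in place of 54.0% at 0 h, and the cause was not tested. Partner genes called at 3 h numbered 31 on log2(TPM+1) without a filter, in place of 50. The median residual level of the members was 4.64% at 3 h and 7% at 0 h; it was 5% and 6.35% on TPM and 6.73% at 0 h under RLE scaling, and 4.43% to 4.88% and 6.90% to 7.21% with 1 library left out. Replicate numbers did not pair the libraries (correlation of deviations -0.0757 to 0.0095 over the group pairs), and the fit with the replicate block called 10034 genes at 3 h and 10319 at 0 h for the guide and changed no member's call. With 8 to 16 counts, Kctd12b and Hepacam2 at 3 h with the Foxp3 guide are limited by depth.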

Other observations

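Responses to stimulation of the activin-type ligand genes counted above were not given there, and that of Inhba was large. Inhba, which encodes the activin A subunit and was chosen after its values were seen, averaged 53.6 ± 0.0132 CPM at 3 h with the Foxp3 guide, against 0.0423 ± 0.0392 CPM at 0 h, and 37.7 ± 1.37 CPM at 3 h with the control guide, against 0.0529 ± 0.0117 CPM at 0 h (SD, n = 2 each). The unstimulated groups held 6 and 5 counts, and the log2 change on stimulation was 10.2 under the Foxp3 guide and 9.41 under the control (adjusted p = 2.41e-25 for the control, edgeR's quasi-likelihood test). Its guide effect was 0.51 ± 0.05 at 3 h on the log2 scale and passed edgeR's quasi-likelihood test. Acvr1b, the related type I activin receptor gene, fell by 1.65 with the Foxp3 guide and by 1.27 with the control guide on stimulation. No activin protein or signal was measured.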
